A study of Mus musculus with 6 samples.

Results

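The genes of hyaluronan and of the proteins that bind it were described in healing flexor tendons: the hyaluronan synthases *Has1*, *Has2* and *Has3*, the lecticans *Acan* (aggrecan) and *Vcan* (versican), the link proteins *Hapln1* and *Hapln3*, the hyaluronan-binding proteins *Tnfaip6* and *Cd44*, and *Prg4* (lubricin). They were chosen by symbol for their function, with earlier results of these data known. All 10 of the 10 were found among the 53819 genes of the deposited table and were among the 17496 that passed the filter on low counts. RNA-seq was made from flexor digitorum longus (FDL) tendons of the mouse hind paw at D28 after complete transection and repair, with 1 tendon per library. DTRScxLin mice (Scx-Cre+; DTR F/+, n = 3) carried Cre under the control of *Scx*, the transcription factor that marks tendon cells, and 1 Rosa allele of the diphtheria toxin receptor that Cre switches on by removing a floxed stop. WT mice (Scx-Cre-; DTR F/+, n = 3) were littermates with the same receptor allele and no Cre. Mice of either genotype had surgery at 10 to 12 weeks of age and received 5 daily injections of 100 ng diphtheria toxin (DT), from D14 to D18, at the repaired tendon. The Cre was not inducible, so that any cell with a history of *Scx* expression was a target. What was sequenced is the tissue present at D28, without any cells that were lost and with any that were added after the toxin. The extent of that loss was not measured in these libraries. The labels count the 28 days once from surgery and once from depletion, and the time from surgery is used here. The deposited counts summed to between 42744138 and 48854310 per library.

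Hyaluronan is a long, unsulfated sugar chain that is made at the cell membrane by the synthases and extruded into the matrix. Lecticans bind it through a link domain at the N-terminus, link proteins lock that contact, and the large hydrated aggregates that result resist compression and keep a matrix loose. In tendon, aggrecan is found where the tissue is compressed, versican around cells and in provisional matrix, and lubricin on gliding surfaces, where it prevents adhesion.

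*Has2*, *Vcan* and *Cd44* had higher normalized counts in all 3 DTRScxLin tendons than in any WT tendon, by 1.35-fold, 1.33-fold and 1.30-fold. *Prg4* and *Has3* had lower means in DTRScxLin tendons, at 0.724 and 0.698 of the WT level in the fit, with overlap between the genotypes. *Acan*, *Hapln1*, *Hapln3* and *Has1* differed less between genotypes than between animals. None of the 10 genes passed the test across all genes. With edgeR's quasi-likelihood test and Benjamini-Hochberg adjustment over all 17496 genes, 0 of the 10 had an adjusted p under 0.05, as for all genes (0% called in either direction). The adjusted p of the 10 ranged from 0.347 to 0.969. At an unadjusted p under 0.05, 2 of the 10 were higher and 0 lower, against 5.52% and 5.45% of all genes. These were *Has2* and *Cd44*. Under the other fits 2 to 5 of the 10 were at that threshold, and which ones depended on the fit. With the skeletal muscle level as a covariate *Has2* was higher and *Acan* and *Prg4* were lower, while *Cd44* was not among them (unadjusted p = 0.142, edgeR). DESeq2 had 5, with *Has2*, *Cd44*, *Vcan* and *Tnfaip6* higher and *Prg4* lower. DESeq2, which called 466 of 17564 genes (2.65%), called 0 of the 10, and limma on the deposited normalized counts also called 0. Absence of overlap in the higher direction, found for 3 of the 10, was found for 8.96% of all genes tested, and in the lower direction for 0 of the 10 against 7.85% (16.8% in either). Of the 10, 8 had a positive log2 fold change, as did 51.5% of all genes. The median log2 fold change of the 10 was 0.17, beside 0.0082 for all genes tested. Normalized counts below were scaled by TMM to the mean effective library size, and a log2 fold change above 0 means higher in DTRScxLin tendons.

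**Figure D1:**
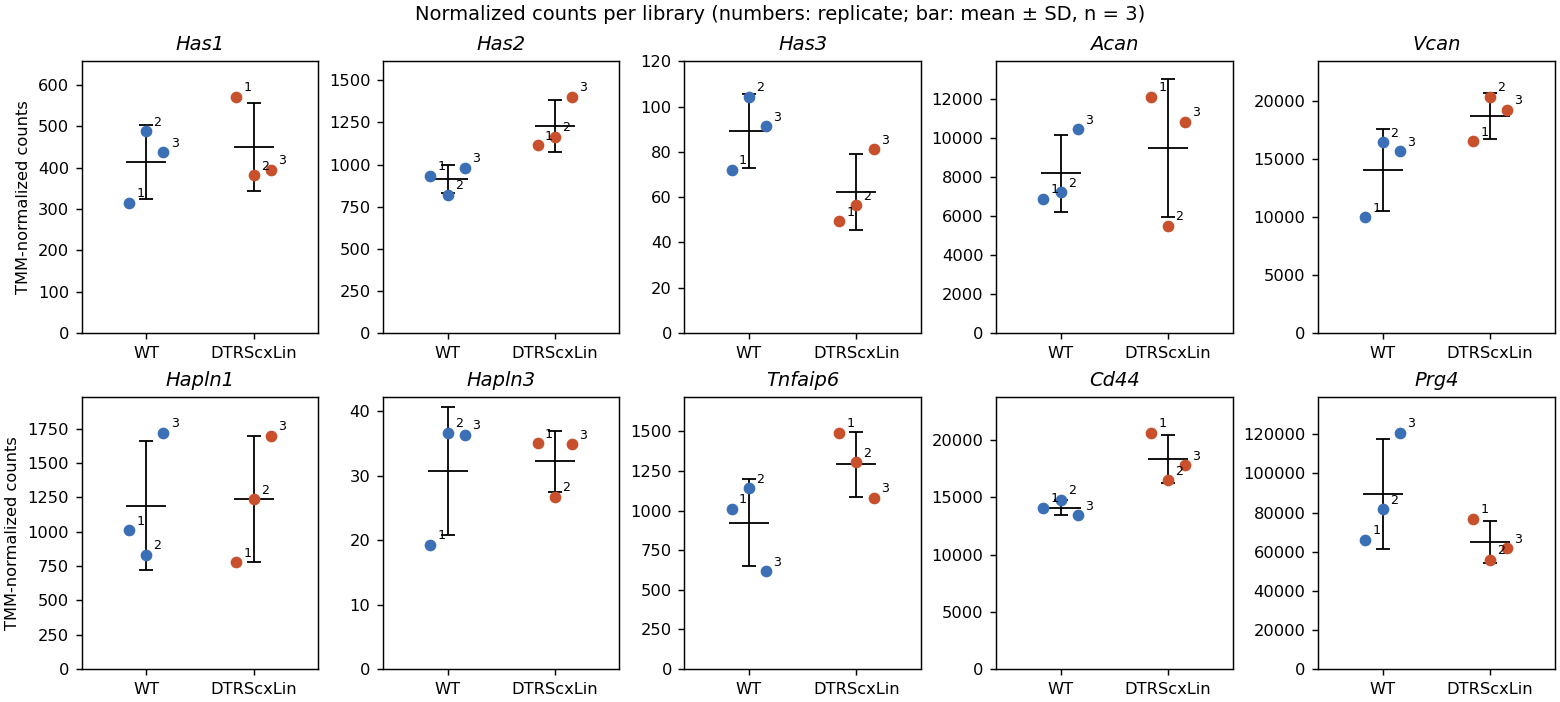
Normalized counts (y axes, linear, from 0) of the 10 genes in the 3 WT and 3 DTRScxLin tendons, with the replicate number at each point and the mean ± SD (n = 3) as black bars. *Has2*, *Vcan* and *Cd44* are the panels in which the genotypes do not overlap, and in *Vcan* the gap lies between 16482 (WT replicate 2) and 16564.5 (DTRScxLin replicate 1).

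**Figure D2:**
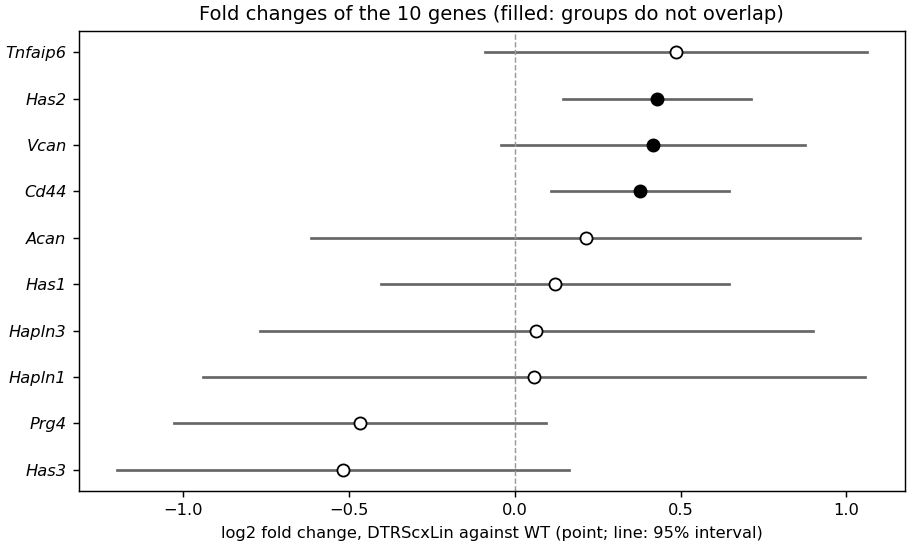
Log2 fold change (x axis) of each gene in DTRScxLin against WT tendons, ordered by size, with the 95% interval from edgeR's fit as a line. Filled points mark genes whose genotypes do not overlap, and the intervals of *Has2* and *Cd44* are those that do not reach 0.

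The genes differed widely in level. Per kilobase of exon (the union of the exons of each gene in GENCODE vM21), *Prg4* was the most abundant in both genotypes, with 20930.0 ± 6593 normalized counts per kb in WT and 15150.0 ± 2526 in DTRScxLin tendons (SD, n = 3 each). *Cd44* followed at 2083 ± 99.7 and 2706 ± 313, and every library's *Cd44* level per kb was below every library's *Prg4* level. *Acan* (1098 ± 265 and 1273 ± 472) and *Vcan* (971.5 ± 245.5 and 1297 ± 137) came next and overlapped each other, and *Vcan* in turn overlapped *Tnfaip6* (539.9 ± 160.0 and 756 ± 121). *Has2* (215 ± 19.6 and 289.9 ± 36.5) and *Hapln1* (202 ± 79.7 and 210.0 ± 78.2) overlapped at the next level down, followed by *Has1* (91.5 ± 19.7 and 99.4 ± 23.5). *Has3* (7.75 to 16.4 over the 6 libraries) and *Hapln3* (8.76 ± 2.84 in WT and 9.18 ± 1.35 in DTRScxLin) were the lowest and overlapped.

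**Figure D3:**
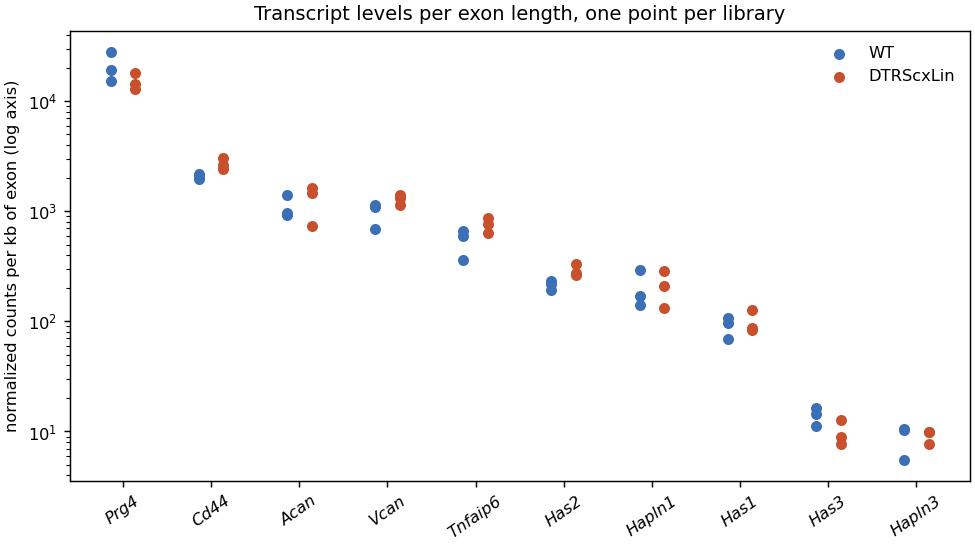
Normalized counts per kb of exon (y axis, log scale) of the 10 genes in each library, with WT in blue and DTRScxLin in red. The order runs from *Prg4*, at 13070.0 or more in each library, to *Hapln3*, below 10.5 in each.

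Of the synthases, *Has2* makes the long chains of most connective tissues. *Has2* stood at 934, 819.9 and 982 in the WT tendons compared with 1114, 1167 and 1404 in the DTRScxLin tendons (normalized counts, replicates 1 to 3). The lowest DTRScxLin tendon was thus above the highest WT tendon. The log2 fold change was 0.43 (95% interval 0.15 to 0.71, unadjusted p = 0.00841, adjusted p = 0.347, edgeR). It ranged from 0.32 to 0.49 when libraries were left out in turn. *Has1*, the synthase most tied to inflammatory stimulation, stood at 315, 488 and 437 in the WT tendons compared with 572, 382 and 394 in the DTRScxLin tendons (normalized counts, replicates 1 to 3). Its lowest value was in WT replicate 1 and its highest in DTRScxLin replicate 1, and without either of these libraries its log2 fold change of 0.12 (95% interval -0.40 to 0.64) became -0.042 or -0.096. *Has3*, the synthase of shorter chains, which is strong in epithelia, was the least abundant of the synthases. It stood at 72.0, 104 and 91.4 in the WT tendons compared with 49.5, 56.4 and 81.2 in the DTRScxLin tendons (normalized counts). DTRScxLin replicate 3 fell within the WT range (log2 fold change -0.52, 95% interval -1.20 to 0.16, adjusted p = 0.528, edgeR).

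As a share of the summed synthase level per kb, *Has2* held 73.1%, 60.9% and 67.6% in the WT tendons compared with 66.2%, 74.7% and 76.8% in the DTRScxLin tendons. It was the main synthase in every library. *Has3* held 3.75%, 5.15% and 4.18% in the WT tendons compared with 1.95%, 2.40% and 2.95% in the DTRScxLin tendons, without overlap. The summed level itself was 321 ± 21.0 in WT and 399 ± 31.5 in DTRScxLin tendons (normalized counts per kb, SD, n = 3 each), also without overlap. These sums and shares are given as descriptions, without a test. *Has2*, the largest part of the sum, already separated the genotypes by itself. *Has2* shares 4.3% of its exon bases with the antisense gene *Has2os*, *Has3* 5.52% with *Chtf8* and *Prg4* 4.77% with *Tpr*, all on the opposite strand, and whether counting used strand is not given in the sources used here. The other 7 genes share no exon base with another gene in GENCODE vM21.

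**Figure D4:**
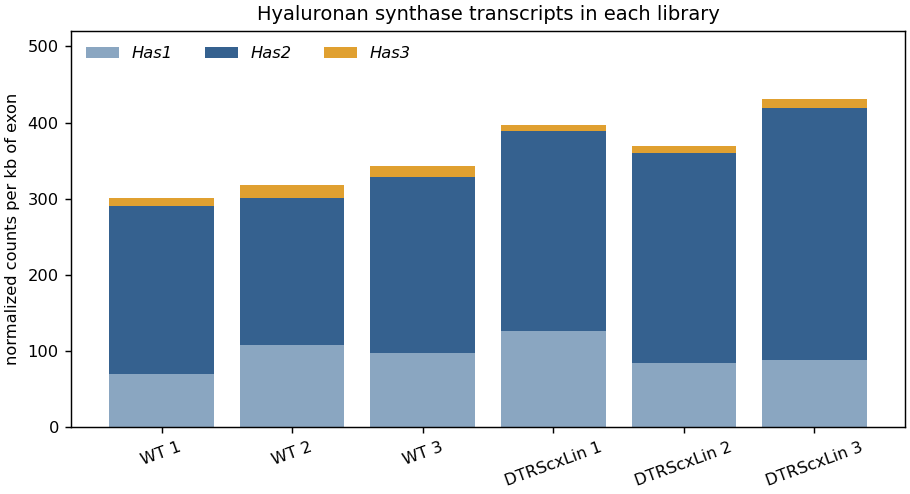
Stacked normalized counts per kb of exon (y axis, from 0) of *Has1*, *Has2* and *Has3* in each library (x axis). *Has2* is the largest part of each bar, and the 3 DTRScxLin bars (369 to 431) are taller than the 3 WT bars (301 to 343).

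The lecticans carry the chondroitin sulfate of hyaluronan aggregates. *Vcan*, the lectican of provisional and cell-rich matrix, stood at 9975, 16482 and 15691 in the WT tendons compared with 16564.5, 20424 and 19275 in the DTRScxLin tendons (normalized counts, replicates 1 to 3). The genotypes did not overlap, but WT replicate 2 and DTRScxLin replicate 1 nearly met. The log2 fold change was 0.42 (95% interval -0.042 to 0.88, unadjusted p = 0.0693, adjusted p = 0.477, edgeR), and it was 0.22 without WT replicate 1, the lowest library. *Acan*, the lectican of cartilage and of compressed tendon, stood at 6905, 7216 and 10475 in the WT tendons compared with 12149, 5502 and 10864 in the DTRScxLin tendons (normalized counts). DTRScxLin tendons held the highest and the lowest *Acan* value of the 6. The log2 fold change of 0.21 (95% interval -0.61 to 1.04, adjusted p = 0.847, edgeR) was -0.0063 without DTRScxLin replicate 1 and 0.49 without DTRScxLin replicate 2, the library in which *Acan* was lowest. *Vcan* was highest in that same library, so that the ratio of *Vcan* to *Acan* per kb was 1.92 there and between 0.704 and 1.18 in the other 5 tendons.

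In the mouse genome the lectican and link protein genes lie in pairs: among the protein-coding genes of RefSeq GRCm38.p6, *Hapln1* neighbours *Vcan* on chromosome 13 and *Acan* neighbours *Hapln3* on chromosome 7. *Hapln1*, the cartilage link protein, stood at 1013, 834 and 1723 in the WT tendons compared with 778, 1239 and 1701 in the DTRScxLin tendons (normalized counts, replicates 1 to 3). The spread within each genotype was wide, with a coefficient of variation of 39.5% in WT and 37.2% in DTRScxLin tendons, and the genotypes overlapped. The log2 fold change was 0.059 (95% interval -0.94 to 1.06, adjusted p = 0.969, edgeR) and ranged from -0.24 to 0.42 when libraries were left out in turn. *Hapln3*, a link protein of wider distribution, stood at only 19.3, 36.7 and 36.4 in the WT tendons compared with 35.03, 26.8 and 34.9 in the DTRScxLin tendons (normalized counts). All but the lowest WT tendon lay close to the DTRScxLin range (log2 fold change 0.065, 95% interval -0.77 to 0.90), and without WT replicate 1 the value was -0.18. Neighbouring genes did not share their extremes: *Vcan* was highest in DTRScxLin replicate 2 and *Hapln1* in WT replicate 3, while *Acan* was highest in DTRScxLin replicate 1 and *Hapln3* in WT replicate 2. Per kb, *Vcan* stood at 3.72 to 8.69 times *Hapln1* and *Acan* at 92.5 to 168 times *Hapln3* across the 6 libraries.

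The promoters of *Vcan* and *Cd44*, whose counts did not overlap between the genotypes, are shown beside that of *Acan*, whose counts did, as the 250 bases before the RefSeq start (GRCm38.p6). They hold no exon base in GENCODE vM21. The windows are chr13:89742513-89742762 (minus strand) for *Vcan*, chr2:102901666-102901915 (minus strand) for *Cd44* and chr7:79052976-79053225 (plus strand) for *Acan*. Capitals mark matches, on either strand, to the TATA box (TATAAA), the CCAAT box (CCAAT), the GC box (GGGCGG), the AP-1 motif (TGANTCA), the E-box (CANNTG) and the cyclic AMP response element (TGACGTCA), where N is any base.
Vcan: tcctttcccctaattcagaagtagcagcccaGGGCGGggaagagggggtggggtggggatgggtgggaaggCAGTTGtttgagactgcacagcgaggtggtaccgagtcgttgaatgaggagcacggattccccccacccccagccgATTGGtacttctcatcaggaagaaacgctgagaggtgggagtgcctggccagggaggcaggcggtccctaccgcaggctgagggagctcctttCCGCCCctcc
Cd44: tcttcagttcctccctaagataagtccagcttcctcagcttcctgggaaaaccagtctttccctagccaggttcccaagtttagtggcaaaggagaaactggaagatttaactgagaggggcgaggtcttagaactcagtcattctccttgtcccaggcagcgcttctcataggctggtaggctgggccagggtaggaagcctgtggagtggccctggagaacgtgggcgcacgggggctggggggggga
Acan: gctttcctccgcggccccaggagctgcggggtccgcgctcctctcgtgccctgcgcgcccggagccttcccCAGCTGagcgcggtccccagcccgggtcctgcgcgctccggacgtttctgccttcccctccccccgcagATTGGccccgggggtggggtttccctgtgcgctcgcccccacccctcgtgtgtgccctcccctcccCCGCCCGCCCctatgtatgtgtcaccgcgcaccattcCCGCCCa
*Vcan* and *Acan* each hold 1 E-box, the kind of site that *Scx* and other helix-loop-helix factors bind, at -179, 1 CCAAT box (at -103 and -110) and more than 1 GC box, of which a pair overlaps in *Acan*. *Cd44* holds none of the 6 motifs in this window. Of 32851 promoter windows of the same length, 66.2% hold an E-box, 33.8% a CCAAT box, 32.7% a GC box, 12.4% a TATA box, 6.75% an AP-1 motif and 1.55% a cyclic AMP response element. These matches describe the letters and were not tied to any difference between the genotypes. A promoter entry was matched for 7 of the 10 genes, and *Has2*, *Has3* and *Prg4* are named only.

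*Cd44*, the main cell surface receptor for hyaluronan, stood at 14082, 14810.1 and 13460.2 in the WT tendons compared with 20666, 16523 and 17826 in the DTRScxLin tendons (normalized counts, replicates 1 to 3). WT tendons lay close together, with a coefficient of variation of 4.79% against 11.6% in DTRScxLin tendons, and the genotypes did not overlap. The log2 fold change was 0.38 (95% interval 0.11 to 0.65, unadjusted p = 0.0121, adjusted p = 0.360, edgeR), and DESeq2's adjusted p was 0.0721. It ranged from 0.28 to 0.45 when libraries were left out in turn and was 0.225 with the skeletal muscle level as a covariate. *Cd44* is abundant on leukocytes as well as fibroblasts. A list of 10 macrophage and leukocyte genes, led by *Lyz2* and with no gene at 0, held 0.373%, 0.302% and 0.356% of the counts in WT and 0.356%, 0.365% and 0.333% in DTRScxLin replicates 1 to 3. Of its 10 genes, 0 separated the genotypes, against 16.8% of all genes tested. In bulk tissue, more cells of a type and more RNA per cell cannot be told apart.

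*Tnfaip6* encodes TSG-6, a secreted link-domain protein that transfers heavy chains of inter-alpha-inhibitor onto hyaluronan. It stood at 1013, 1141 and 616 in the WT tendons compared with 1493, 1306 and 1081 in the DTRScxLin tendons (normalized counts, replicates 1 to 3). WT replicate 3 was the lowest, and WT replicate 2 lay above DTRScxLin replicate 3. Its log2 fold change was the largest positive value of the 10, at 0.49 (95% interval -0.090 to 1.06, adjusted p = 0.496, edgeR), and it was 0.26 without WT replicate 3.

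*Prg4* encodes lubricin, the mucin-like proteoglycan that coats synovial and tendon surfaces. It stood at 66146.5, 81708.5 and 120905 in the WT tendons compared with 76868.5, 55951 and 61653 in the DTRScxLin tendons (normalized counts, replicates 1 to 3). WT replicate 3 was far above the rest, and DTRScxLin replicate 1 lay between WT replicates 1 and 2, so that the genotypes overlapped. The log2 fold change was -0.47 (95% interval -1.03 to 0.095, unadjusted p = 0.0910, adjusted p = 0.505, edgeR). Without WT replicate 3 it was -0.19, and without WT replicate 1 it was -0.64. It was -0.75 with the skeletal muscle level as a covariate and -0.66 with the keratinocyte level (unadjusted p = 0.0347 and 0.0149, adjusted p = 0.757 and 0.60, edgeR). With sex as a covariate it was -0.379, and with the replicate block -0.435 (unadjusted p = 0.162 and 0.137, edgeR). Without DTRScxLin replicate 2, the library in which *Prg4* was lowest, it was -0.37. The ratio of *Cd44* to *Prg4* per kb was 0.134, 0.114 and 0.0703 in the WT tendons compared with 0.170, 0.187 and 0.183 in the DTRScxLin tendons, without overlap. That of *Prg4* to *Acan* was 16.7, 19.8 and 20.1 compared with 11.0, 17.7 and 9.9, with overlap. These ratios are descriptions, without a test, and *Cd44* already separated the genotypes by itself. Of 7 genes listed for the synovial lining and tendon sheath, 3 had a positive and 4 a negative log2 fold change (median -0.037). At an unadjusted p under 0.05, 0 were higher and 1 lower, against 5.52% and 5.45% of all genes. The lower one was *Clic5* (log2 fold change -0.58, adjusted p = 0.429, edgeR), with overlap, and the only one to separate the genotypes was *Col22a1*, which was higher in DTRScxLin tendons (0.62, adjusted p = 0.477, edgeR). Both were named after their values were seen, and 8.96% of all genes tested were higher without overlap. That list, led by *Hbegf* and with no gene at 0, held 0.0277%, 0.0308% and 0.0344% of the counts in WT and 0.0339%, 0.0268% and 0.0285% in DTRScxLin tendons. Its part in the *Prg4* values was not tested.

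No library was highest or lowest for most of the 10 genes. DTRScxLin replicate 1 was the highest for 4 of them (*Has1*, *Acan*, *Tnfaip6* and *Cd44*) and the lowest for 2 (*Has3* and *Hapln1*). WT replicate 1 was the highest for 0 and the lowest for 3 (*Has1*, *Vcan* and *Hapln3*). Highest over lowest across all 6 tendons ran from 1.54 for *Cd44* to 2.42 for *Tnfaip6*.

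Other genes of the hyaluronan pathway were taken from lists by function, which were written with earlier results of these data known. Of their tested genes, 0 passed edgeR's test over all genes. Values for them below are log2 fold changes unless normalized counts are named. Their counts stand beside 5.52% of all genes higher and 5.45% lower at an unadjusted p under 0.05, and 8.96% higher and 7.85% lower without overlap. The hexosamine pathway and UDP-glucose dehydrogenase provide the sugar precursors of hyaluronan. Of 9 precursor genes, 3 were higher and 0 lower at an unadjusted p under 0.05 (median log2 fold change 0.11). *Pgm3*, an enzyme of UDP-N-acetylglucosamine synthesis, stood at 1225, 1197 and 1389 in the WT tendons compared with 1635, 1794 and 1764 in the DTRScxLin tendons (normalized counts, replicates 1 to 3), without overlap. Its log2 fold change was 0.45 (adjusted p = 0.274, edgeR). *Ugdh*, which makes UDP-glucuronic acid, had 5971, 6432 and 7278 in the WT tendons compared with 7738, 8419 and 7439.5 in the DTRScxLin tendons, also without overlap. *Ugp2*, the most abundant of the list, overlapped (log2 fold change -0.15). The third gene at that threshold was *Gnpnat1* (log2 fold change 0.44), which overlapped and was named after its values were seen. So was *Gfpt2*, a hexosamine pathway enzyme at -0.19, which was lower without overlap (adjusted p = 0.492, edgeR), so that 2 of the 9 separated the genotypes upward and 1 downward. Of 8 genes of hyaluronan breakdown, 1 was higher and 0 lower at that threshold (median 0.082). This was the lysosomal hexosaminidase subunit *Hexa* (0.29, adjusted p = 0.453, edgeR), which was also the most abundant, and *Gusb* was at 0.21. None of the 8 separated the genotypes.

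Of 6 other hyaluronan receptors, 2 were higher and 1 lower at an unadjusted p under 0.05 (median -0.032). *Hmmr*, which binds hyaluronan and is also a mitotic spindle protein, stood at 378, 247 and 239 in the WT tendons compared with 661, 378 and 567 in the DTRScxLin tendons (normalized counts, replicates 1 to 3, log2 fold change 0.89, adjusted p = 0.354, edgeR). DTRScxLin replicate 2 and WT replicate 1 were at the same level. *Layn* (layilin) was at 0.30 without overlap, *Stab1*, the most abundant, was at 0.058, and *Lyve1*, a receptor of lymphatic endothelium and resident macrophages named after its values were seen, was at -0.56 with overlap (adjusted p = 0.442, edgeR). *Stab2*, a scavenger receptor also named after its values were seen, was lower without overlap at -0.59 (adjusted p = 0.489, edgeR), so that 1 of the 6 separated the genotypes in each direction. Of the inter-alpha-inhibitor chains, bikunin and *Ptx3*, which build the heavy chain-hyaluronan matrix with TSG-6, 5 of 7 were tested, and 0 were higher and 1 lower at that threshold (median -0.22). *Itih5*, the most abundant, was at 0.24, *Ptx3* at 0.57 with 1104 normalized counts in DTRScxLin replicate 1 against 419.8 to 668 elsewhere, and *Itih4* at -1.21 with at most 33.9 normalized counts in any library.

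Of 8 genes, the ADAMTS proteases that cleave lecticans and their inhibitor *Timp3*, 2 were higher and 0 lower at an unadjusted p under 0.05 (median 0.17). *Adamts1*, a versican-cleaving protease, stood at 1993, 1998 and 1786 in the WT tendons compared with 2889.9, 2641 and 2521 in the DTRScxLin tendons (normalized counts, replicates 1 to 3, log2 fold change 0.48, adjusted p = 0.268, edgeR). *Adamts5*, the main aggrecanase of mouse cartilage, was at 0.24 without overlap, and *Timp3*, the most abundant, at -0.099. Of 10 lectican ligands, 9 were tested, with 2 higher and 2 lower at that threshold (median 0.21). *Fbn1* (fibrillin-1) was at 0.74 and *Tnr* (tenascin-R) at 1.13 (adjusted p = 0.260 and 0.274, edgeR), and *Matn3* and *Matn4*, matrilins that bind cartilage aggregates and were named after their values were seen, were at -0.40 and -0.62. These 4 separated the genotypes. *Adamts1* and *Fbn1* were among the genes that the study selected on these same libraries, so their direction here is not independent evidence. Of 9 adaptors and sheddases of *Cd44*, 0 were higher and 1 lower (median 0.16), the cytoskeletal adaptor *Ank3* at -0.69 without overlap, while *Adam17* was at 0.22 and *Mmp14*, the most abundant, at 0.23, both with overlap. The sheddase *Adam10*, named after its values were seen, was higher without overlap at 0.16 (adjusted p = 0.555, edgeR), so that here too 1 gene separated the genotypes in each direction. The remaining lecticans and link proteins are those of brain: *Bcan* was at 0.44 and *Hapln4* at -0.45 with overlap, and *Ncan* and *Hapln2* did not pass the filter.

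**Figure D5:**
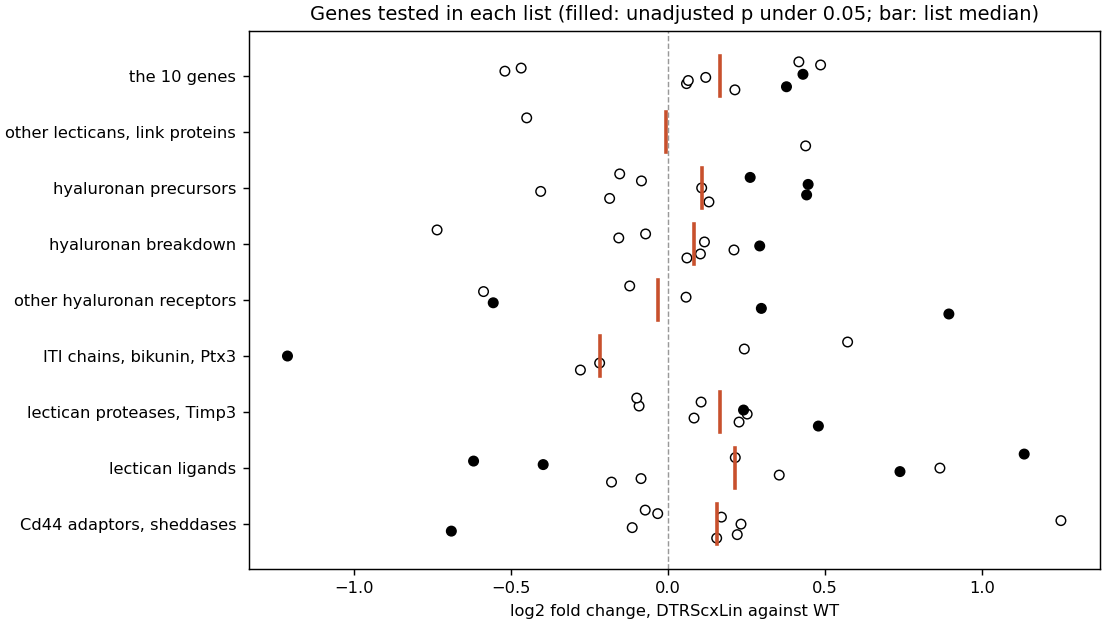
Log2 fold change (x axis) of each tested gene of the 10 and of the pathway lists (y axis), with the list median as a red bar and genes at an unadjusted p under 0.05 filled. Each list has genes on both sides of 0, and the list medians lie between -0.22 (inter-alpha-inhibitor chains, bikunin and *Ptx3*) and 0.21 (lectican ligands).

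The tissue was checked against markers, of which the genes named beyond the most abundant of each list were chosen with their values known. *Scx* itself read 2201, 2703 and 3063 in the WT tendons against 3475, 3406 and 3531 in the DTRScxLin tendons (normalized counts). It was thus higher without overlap in the genotype whose *Scx* lineage was targeted for depletion (log2 fold change 0.39, unadjusted p = 0.0141, adjusted p = 0.371, edgeR). The study lists as a limitation that it could not quantify how efficient depletion was after surgery. *Tnmd* had at least 50498.5 normalized counts in every library, with overlap. A list of 10 tendon cell genes, led by *Col1a2*, held 3.75% to 4.41% of the counts in WT and 5.49%, 4.23% and 5.25% in DTRScxLin replicates 1 to 3, with no gene at 0. Of its genes, 3 were higher and 0 lower at an unadjusted p under 0.05, against 5.52% and 5.45% of all genes. Without overlap, 4 were higher and 0 lower, against 8.96% and 7.85% of all genes. *Thbs4*, which is in both counts, was among the genes that the study selected on these same libraries, so its direction here is not independent evidence. A cartilage list of 14 genes without *Acan* and *Hapln1*, led by *Chad*, held 0.0362% to 0.0416% of the counts in WT and 0.0105%, 0.0297% and 0.0214% in DTRScxLin replicates 1 to 3. Among its defining genes *Col2a1* had 428 to 544 normalized counts in WT and 359.6 to 481 in DTRScxLin tendons, *Matn1* had 6 counts and *Snorc* 11 over all libraries, and between 0 and 2 genes were at 0. Of the 11 cartilage genes tested, 0 were higher and 3 lower at that threshold, against 5.52% and 5.45% of all genes. Without overlap, 0 of them were higher and 3 lower, against 8.96% and 7.85%. DTRScxLin replicate 1, in which *Acan* was highest, had the lowest share of this list. *Chad*, the most abundant gene of the list, had 1162 counts in that library and 3762 to 13009 in the others. The part of cartilage in the *Acan* values was not tested. A skeletal muscle list of 15 genes, led by *Myh1* and with no gene at 0, held 2.33%, 2.05% and 1.67% in the WT tendons compared with 0.283%, 2.08% and 0.539% in the DTRScxLin tendons. DTRScxLin replicate 2 was at the WT level, and with the mean level of this list as a covariate *Acan* went from 0.21 to -0.55 (unadjusted p = 0.0189, adjusted p = 0.710, edgeR). A keratinocyte list of 12 genes, led by *Krt10*, held 0.292%, 0.178% and 0.00155% in the WT tendons compared with 0.00127%, 0.00167% and 0.0282% in the DTRScxLin tendons, with 3, 6 and 5 of its genes at 0 in WT replicate 3 and DTRScxLin replicates 1 and 2. In the 3 libraries where this list was nearly absent, *Has3* had 91.4 normalized counts in WT replicate 3 and its lowest values, 49.5 and 56.4, in DTRScxLin replicates 1 and 2. Adipocyte genes (9, led by *Fabp4*) held 0.0236% to 0.0309% in WT and 0.0162% to 0.0269% in DTRScxLin tendons, with at most 1 gene at 0. Of the 9, 7 were lower at that threshold, against 5.45% of all genes, with log2 fold changes from -2.10 (*Pck1*) to -3.79 (*Lep*). Of these, 6 were without overlap, against 7.85% of all genes, and the list median was -2.25. The abundant *Fabp4* and *Lpl*, which carry most of the share, were at -0.27 and -0.0044 with overlap. Endothelial genes (8, led by *Pecam1*, none at 0) held 0.0566% to 0.0737% and 0.0557% to 0.0664%. All 15 muscle genes (median -1.24) and all 12 keratinocyte genes (median -2.92) had a negative log2 fold change. Of these, 2 muscle genes and 0 keratinocyte genes were lower without overlap, against 7.85% of all genes. None of the muscle, keratinocyte, leukocyte and endothelial genes reached that threshold in edgeR's test. The part of these tissues in the values of the 10 genes was not tested, beyond the fits with a covariate. By *Xist* and Y-linked counts, WT replicate 2 and DTRScxLin replicates 2 and 3 came from females, and the labels do not give sex.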

How the data were processed

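FDL tendons of 3 WT and 3 DTRScxLin mice were sequenced as stranded, single-end mRNA libraries from 200 ng total RNA. The labels also name a SMARTER kit. After read cleaning with FastP, the authors used featureCounts, and the deposited counts are whole numbers without normalization. The second deposited table, a signal of normalized counts, equals these counts after division by a size factor of each library (0.973 to 1.06, DESeq2 1.22.1 per the labels). The aligner, genome build, annotation and strand setting are not given in the sources used here. Columns were matched to samples by the labels' descriptions.

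Differential expression was fitted with edgeR 4.0.16 under R 4.3.3 (filterByExpr, TMM, robust quasi-likelihood fit with genotype as the only term), and p-values were adjusted by Benjamini and Hochberg over 17496 genes with a threshold of 0.05. Standard errors were derived from the F statistic, and 95% intervals from the t distribution. DESeq2 1.42.0 and limma 3.58.1 (log2 of the normalized count + 1) were alternatives, with other normalizations and filters, a replicate block, each library left out in turn, covariates for muscle, keratinocytes and sex, and removal of muscle and keratinocyte genes. Replicates of a genotype differed by 40.1 to 209 chi-square per degree of freedom, so that none was a duplicate.

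The 10 genes and the lists were chosen with earlier results of these data known. The rule for named genes took all 10, and from each pathway list the most abundant gene and the 2 genes with the smallest edgeR p, and from each marker list the most abundant gene. Other genes named in the text fall outside this rule. Staining and mechanics were not analysed here.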

Additional observations from a re-analysis of the deposited data

How the results depend on the processing

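The count of the 10 genes that were called stayed at 0 under all 17 alternatives. The count of all genes called, 0 with edgeR, was 466 with DESeq2 and 83 without a filter on low counts, and it ranged from 0 to 544 when libraries were left out in turn, with 544 (103 higher, 441 lower) without DTRScxLin replicate 2. In that fit *Cd44* and *Has2* had adjusted p-values of 0.108 and 0.133. Of 170 fold changes recomputed for the 10 genes, 158 kept their direction and 12 turned, all in *Has1*, *Acan*, *Hapln1* and *Hapln3*. Leaving out libraries gave -0.0956 to 0.257 for *Has1*, -0.00625 to 0.491 for *Acan*, -0.237 to 0.423 for *Hapln1* and -0.180 to 0.212 for *Hapln3*. With the muscle covariate *Has1* was at -0.178, *Acan* at -0.546 and *Hapln3* at -0.234, and with the keratinocyte covariate *Hapln3* was at -0.0155; the cause was not tested. *Has2*, *Vcan*, *Tnfaip6* and *Cd44* stayed above 0 and *Has3* and *Prg4* below 0 under all 17. With sex as a covariate *Vcan* was at 0.318 and *Acan* at 0.332.

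With the replicate number as a block, 1 gene in all was called, and 0 of the 10. At an unadjusted p under 0.05 that fit had 4 of the 10 (*Has2*, *Cd44*, *Vcan* and *Tnfaip6*, all higher), against 2 without the block. Of all 17496 genes, 1888 were at that threshold with the block. Same-numbered libraries of the genotypes did not deviate together (r = -0.188, -0.149 and -0.684 for numbers 1 to 3, across genes, which are not independent replicates). These are deviations from means of only 3 libraries, so they cannot decide whether the numbers pair the animals. Precision is limited by 3 animals per genotype. *Hapln3* and *Has3* had low counts in every library, and the effect of this on precision was not tested. The standard error of the log2 fold change was 0.358 for *Hapln3* and 0.293 for *Has3*, and 0.396 for the more abundant *Hapln1*.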
